A study of Mus musculus with 2 samples.

Results

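The genes of the tumour necrosis factor (TNF) superfamily, its receptors, their TRAF adaptors and the NF-kB subunits were examined in cultured mouse fetal thymic stroma. Members were all probes, other than controls, whose gene name on the array belonged to the numbered TNF ligand, TNF receptor or TRAF series, together with Tnf, Lta, Ltb, Ltbr, Cd40, Cd40lg, Eda, Edar, Nfkb1, Nfkb2, Rel, Rela and Relb. This gave 55 genes with 76 probes of 19505 named genes and 41174 probes on the array. They comprised 17 ligands, 25 receptors, 7 TRAF adaptors, 5 NF-kB subunits and 1 gene, Psmg2, whose older array name is Tnfsf5ip1 and which encodes a proteasome assembly chaperone rather than a family protein. The array names Tnfsf7, Tnfrsf7 and Tnfrsf19l are printed here as Cd70, Cd27 and Relt.

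The comparison was between reaggregation thymus organ culture (RTOC), in which dispersed stromal cells are packed together on a membrane, and 2D culture, in which the same kind of cells spread on a dish. Thymic lobes of C57BL/6 fetuses were first held in organ culture with 1.35 mM deoxyguanosine, which depletes lymphoid cells, for 8 days (lobes of stage E14.5) or 9 days (E15.5), and RNA was taken after 72 h of RTOC or 2D culture. All cultures thus shared the strain, the drug and the preceding organ culture, and the stroma was not sorted, so that epithelial cells, fibroblasts, endothelium and residual blood cells all contributed RNA. Each of 2 arrays, 1 per stage, carried RNA of 2D culture in Cy3 and of RTOC in Cy5. Without a dye swap, a dye preference of a probe and the culture cannot be told apart, nor can the stage, the days of organ culture and the array. In such bulk RNA, fewer cells of a type and less RNA per cell cannot be told apart either.

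TNF family ligands are mostly made as membrane-bound trimers and act on receptors of neighbouring cells. Receptors without a death domain recruit TRAF proteins, which couple them to NF-kB. The classical route frees dimers of p50 (from Nfkb1) with RelA or c-Rel from their inhibitors, whereas the alternative route, used by RANK, CD40 and the lymphotoxin beta receptor, stabilises the kinase NIK, by which p100 (from Nfkb2) is cut to p52 and joined to RelB. In the thymus, RANK ligand, CD40 ligand and lymphotoxin from lymphoid cells act on these receptors to support the medullary epithelium, including the cells that express Aire.

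Values are intensities after quantile normalization over the 4 channels, and log2 ratios of RTOC over 2D culture with their mean and SD over 2 arrays. A gene with several probes is given by the brightest tested probe. Intensities of different probes are not compared as RNA amounts, and sums over a list add probe signals only. A gene was tested where at least 1 culture was well above background on each array, against a ratio of 0 with limma and adjustment over all 23685 probes tested. A gene dim in 1 culture on both arrays is given by a bound, written as at least a fold. It sets the bright culture against the higher of the gene's dim signal and the lowest signal well above background. This is done after a background correction (normexp with loess). The bound does not allow for the spread between arrays, so a smaller difference or none is not excluded. The first adjusted p beside a bound is that of the quantile-normalized ratio and does not test the bound. The adjusted p after normexp and loess tests the bound's value where the dim signals set it. Across the array, 53.1% to 60.9% of the probes were well above background per channel, and the 2 arrays' log2 ratios correlated at 0.827 across probes. An exact sign-flip test of 2 arrays cannot go below p = 0.5, so each p rests on the spread limma shares across probes.

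Sequences bearing on the later values are shown first. The promoters are those of RefSeq on GRCm38.p6, from 250 bases before to 50 bases after the start site, which were available for 42 of the 55 genes. A match to the κB consensus, the DNA element bound by NF-kB dimers, was searched on both strands. It was found in 7 of these 42 genes (16.7%), namely Ltb, Nfkb2, Rel, Tnfrsf25, Tnfrsf8, Tnfrsf9 and Traf3, and in 5.80% of all 32851 promoters and 6.55% of 27025 genes. The stretches around it are printed for the pair among these genes that was higher in RTOC, Ltb (chr17:35194395-35194454, plus strand) and Tnfrsf25 (chr4:152116290-152116342, plus strand), and for Nfkb2 (chr19:46304673-46304736, plus strand), which did not pass the test. Further matches of Nfkb2 (chr19:46305680-46305739, and past a start site) and of Tnfrsf25 (past the start site) are not printed. Capitals mark the match, and a match is a description of letters, not of binding.
Ltb: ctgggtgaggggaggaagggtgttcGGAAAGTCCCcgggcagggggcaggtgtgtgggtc
Tnfrsf25: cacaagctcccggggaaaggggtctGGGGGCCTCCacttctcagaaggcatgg
Nfkb2: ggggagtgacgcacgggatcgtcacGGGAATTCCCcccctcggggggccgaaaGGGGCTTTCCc

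The array probes are 60 bases long. Their first 30 bases are shown where probes of a gene gave different results, as for Tnfrsf11a, the gene of RANK, and Tnfrsf1b. The probes of a pair shared no stretch longer than 5 bases (Tnfrsf11a) and 6 bases (Tnfrsf1b), so each reads its own piece of the transcript. Where in the gene they lie is not given here.
Tnfrsf11a, brighter probe: atctagaccttaacagtaatccggcaggta
Tnfrsf11a, dimmer probe: cgcagacttcactccatacccaggggtccg
Tnfrsf1b, brighter probe: gcaattgcactgtgtgctggacagaattcc
Tnfrsf1b, dimmer probe: ctggtgaactgcttcatcctggtgcagagg

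In RTOC, 8 of the 38 tested member genes were higher and 9 were lower than in 2D culture, and 21 did not pass the test. The higher genes were Ltb, Tnfrsf11a, Tnfrsf18, Tnfrsf19, Tnfrsf25, Tnfrsf14, Edar and Nfkb1. The lower genes were Tnfsf9, Tnfsf14, Tnfrsf10b, Tnfrsf11b, Tnfrsf12a, Tnfrsf22, Tnfrsf26, Relt and Rela. These were 21.1% and 23.7% of the tested members, beside 15.4% higher and 12.7% lower among all 13506 genes tested. The median log2 ratio was 0.06 over the tested members and 0.0025 over all genes tested. Since genes dim in a culture can enter the test through the other culture, the 32 members well above background in all 4 channels were also counted, with 6 higher and 6 lower (18.8% each), beside 12.5% and 12.2% of the 12074 genes so measured.

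After another background correction (normexp with loess), 8 of these 17 genes still passed, namely Tnfrsf11a, Tnfrsf18, Tnfrsf19, Nfkb1, Tnfrsf10b, Tnfrsf11b, Tnfrsf12a and Rela. By its construction this correction, which adds an offset of 50 to each signal, shrinks the ratios of dim probes, and its value is given below, for genes not stated as a bound, where it differs by more than 1.5-fold. Without the filter on dim probes no probe passed limma's adjusted threshold, with 19 member genes at an unadjusted p under 0.05. Centring each array on its median put the median of all tested probes at 0.15, against -0.0071, and gave 65.1% of all called probes as higher, against 52.9%, and 10 members as higher and 7 as lower.

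**Figure D1:**
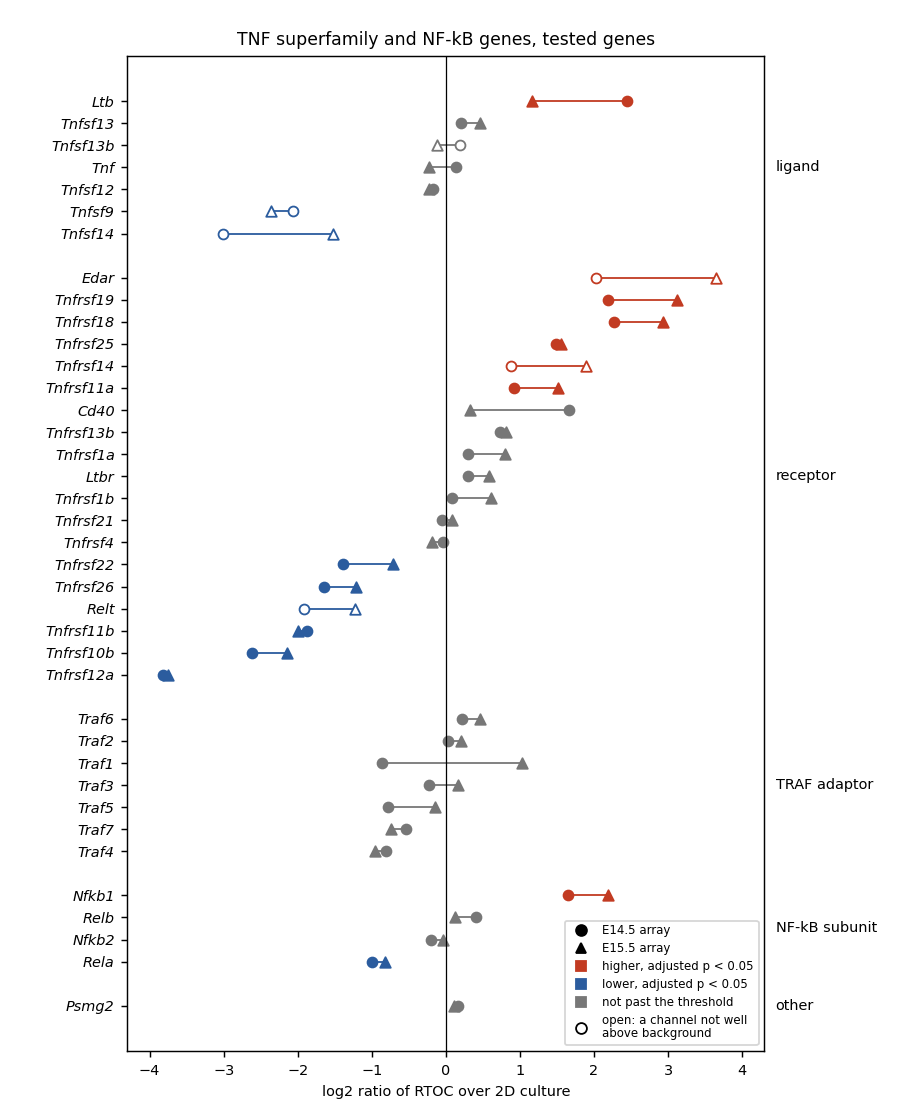
Log2 ratio of RTOC over 2D culture (horizontal axis) of the 38 tested member genes, by role, on the E14.5 array (circles) and the E15.5 array (triangles), with colours for the limma call and open symbols for genes with a channel not well above background, whose ratios are thus not fully measured. Tnfrsf12a lies farthest to the left on both arrays, the TRAF genes hold no called gene, and the symbols of Traf1 lie on opposite sides of 0.

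Detection differed by role. In the plot of detection, 32 genes were well above background in all 4 channels and 11 in none. The 11 were the ligands Tnfsf11, Cd40lg, Lta, Cd70 and Tnfsf8, the receptors Cd27, Tnfrsf8, Tnfrsf9, Tnfrsf13c and Tnfrsf17, and the subunit gene Rel. Among the ligands 7 of 17 could be tested, among the receptors 19 of 25, and all 7 TRAF genes. Most of the undetected ligands are known as products of activated lymphocytes.

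**Figure D2:**
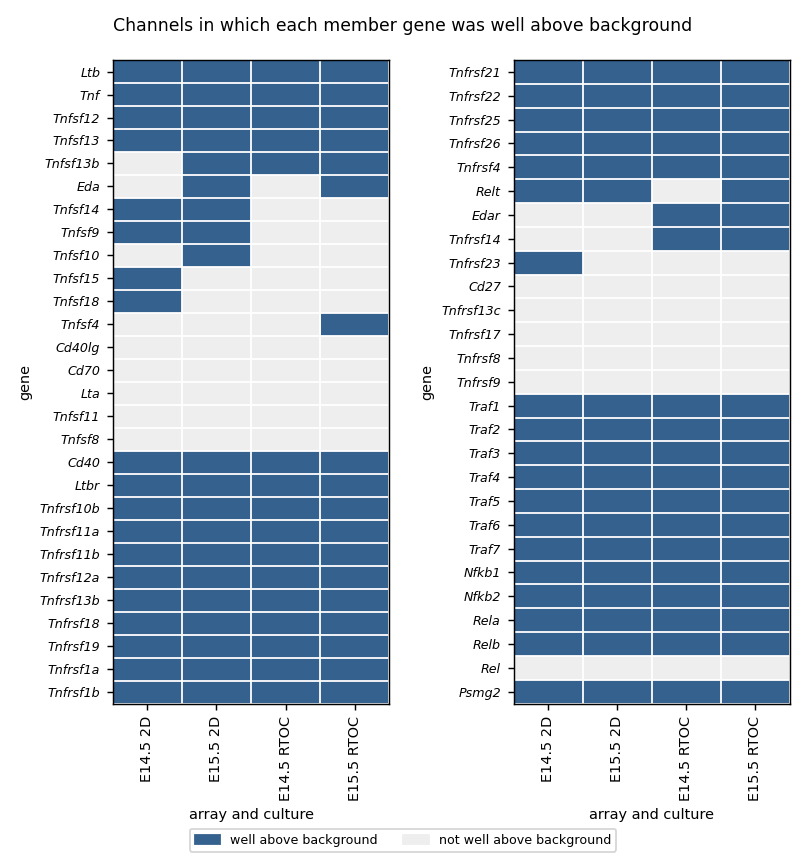
Channels (columns) in which each of the 55 member genes (rows) was well above background, with dark cells for yes and pale cells for no. Tnfsf9 and Tnfsf14 are dark in the 2D channels alone, and Edar and Tnfrsf14 in the RTOC channels alone.

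The RANK axis moved at its receptors, while its ligand was not detected. Tnfsf11, the gene of RANK ligand, had 2 probes, neither of which was well above background in any channel. Tnfrsf11a read 459 in 2D culture and 871 in RTOC at E14.5, and 268 and 766 at E15.5. Both RTOC values lay above both 2D values, and the ratio was 2.33-fold (log2 1.22 ± 0.42, SD, n = 2, adjusted p = 0.0283). The dimmer Tnfrsf11a probe read 190 and 198 at E14.5 and 119 and 190 at E15.5, a log2 ratio of 0.37 (adjusted p = 0.358). The median of both probes, 0.80, did not pass (adjusted p = 0.0858), nor did the brighter probe without the array as a block (adjusted p = 0.0689).

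Tnfrsf11b encodes osteoprotegerin, the soluble decoy that binds RANK ligand and keeps it from RANK. It read 481 in 2D culture and 131 in RTOC at E14.5, and 1121 and 282 at E15.5. The levels of 2D culture lay above those of RTOC on both arrays, and Tnfrsf11b fell by 1.94 on the log2 scale in RTOC (SD 0.08, n = 2, adjusted p = 0.00553), 3.82-fold. After normexp and loess the value was -0.81 (adjusted p = 0.0480). The receptor and the decoy thus had opposite signs on both arrays. Without the array as a block the decoy's adjusted p was 0.0691.

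The CD40 axis was measured at its receptor alone. Cd40lg, the ligand gene of activated T cells, was not well above background in any channel. Cd40 read 197 in 2D culture and 621 in RTOC at E14.5, and 376 and 470 at E15.5. Both RTOC values lay above both 2D values, by 1.66 on the log2 scale within the first array and by 0.32 within the second, and the mean of 0.99 ± 0.94 (SD, n = 2) did not pass the test (95% interval 0.04 to 1.94, adjusted p = 0.104). The 10 spots of its probe had SDs of 0.15 and 0.10, which cover technical spread within an array only, and with 1 array per stage the gap between the arrays was not tested. Centred on the array medians, Cd40 passed with 1.16 (adjusted p = 0.0339).

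In the lymphotoxin axis Ltb rose, and its receptor did not pass the test. Ltb encodes lymphotoxin beta, which anchors lymphotoxin alpha at the membrane. Its probe read 323 in 2D culture and 1754 in RTOC at E14.5, and 336 and 752 at E15.5. Both RTOC values exceeded both 2D values, with a mean of 1.80 ± 0.90 (SD, n = 2), or 3.49-fold (adjusted p = 0.0208). After normexp and loess it was 1.16 (adjusted p = 0.0733). Lta was not well above background in any channel, and its 10 spots had SDs of 0.74 and 0.68.

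Ltbr, the receptor of lymphotoxin and LIGHT, read 14721 in 2D culture and 18047 in RTOC at E14.5, and 8418 and 12614 at E15.5. Its RTOC value at E15.5 lay below its 2D value at E14.5, so that the cultures overlapped, and its mean of 0.44 ± 0.20 (SD, n = 2) did not pass (95% interval -0.20 to 1.08, adjusted p = 0.246). Tnfsf14 encodes LIGHT. It read 230 in 2D culture and 28 in RTOC at E14.5, and 125 and 44 at E15.5, and was not well above background in RTOC on either array. The level in 2D culture was at least 1.29-fold that in RTOC, a bound set here by its own dim signals in RTOC. The limma test of its quantile-normalized ratio gave an adjusted p of 0.0140. After normexp and loess, where the ratio has the size of this bound, it did not pass (adjusted p = 0.138). Its other receptor Tnfrsf14 (HVEM) went the other way. It was measured in RTOC alone, with 127 at E14.5 and 225 at E15.5 against 69 and 61 in 2D culture, at least 1.20-fold higher (adjusted p = 0.0319, and 0.219 after normexp and loess). A second Tnfrsf14 probe, likewise measured in RTOC alone, was also called higher (adjusted p = 0.00458). It was at least 1.09-fold higher and did not pass after normexp and loess (adjusted p = 0.217).

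**Figure D3:**
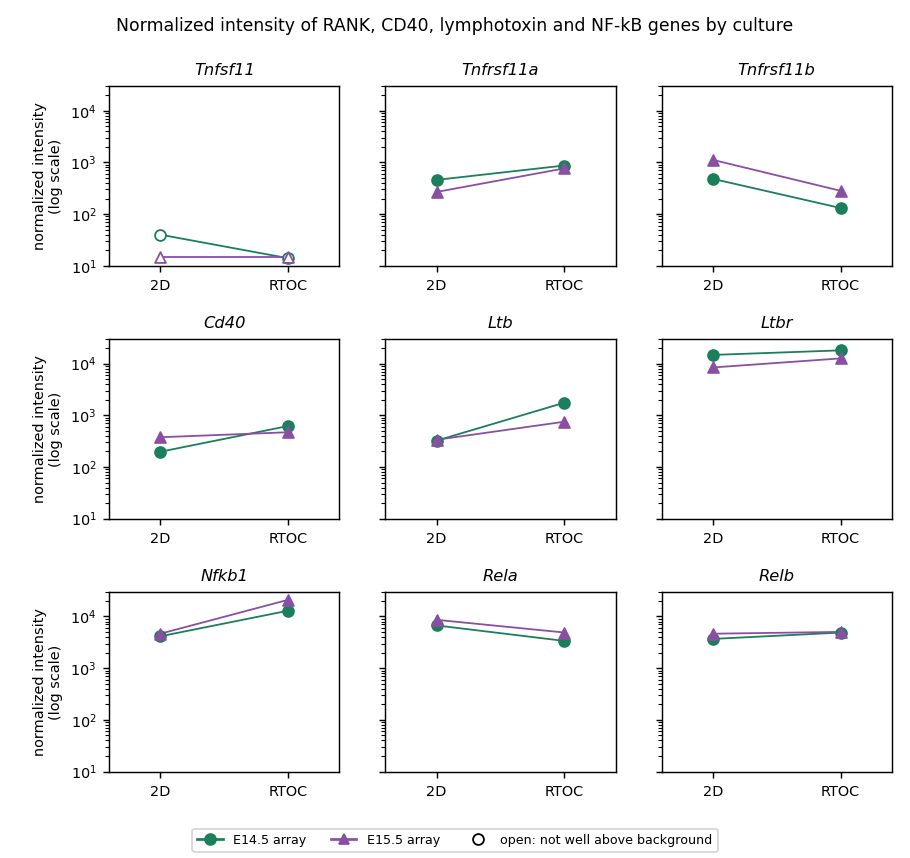
Normalized intensity (vertical log axis) in 2D culture and RTOC of 9 genes of the RANK, CD40 and lymphotoxin axes and of NF-kB, with lines that join the cultures of the E14.5 array (circles) and the E15.5 array (triangles), and open symbols for channels not well above background. Tnfrsf11a and Tnfrsf11b slope in opposite directions, and the lines of Cd40 differ in slope between the arrays.

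The TNF axis did not pass the test at any of its genes, also at an unadjusted p under 0.05. Tnf read 136 in 2D culture and 149 in RTOC at E14.5, and 136 and 116 at E15.5, a mean of -0.05 ± 0.26 (SD, n = 2; 95% interval -0.70 to 0.61, adjusted p = 0.910), whose sign turned under other scalings. Tnf lies next to Ltb and Lta on chromosome 17, and Lta was not tested. Tnfrsf1a, the death-domain receptor of TNF, read 6202 and 7611 at E14.5 and 5217 and 9089 at E15.5 (0.55 ± 0.36, SD, n = 2, adjusted p = 0.181). Tnfrsf1b, the TNF receptor that binds TRAFs directly, read 719 and 760 at E14.5 and 536 and 816 at E15.5, a mean of 0.34 (adjusted p = 0.382). Its dimmer probe had a mean of -0.35 (adjusted p = 0.349), so the sign of Tnfrsf1b depended on the probe.

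Tnfrsf12a (Fn14), the receptor of the ligand TWEAK, had the lowest ratio of the tested members. It read 92205 in 2D culture and 6521 in RTOC at E14.5, and 68456 and 5058 at E15.5. The ratio repeated closely, with -3.82 and -3.76 on the log2 scale, a mean of -3.79 ± 0.04 (SD, n = 2) or 13.8-fold lower in RTOC (adjusted p = 0.00161). Its ligand gene Tnfsf12 read 254 and 226 at E14.5 and 138 and 118 at E15.5, and did not pass (-0.20; 95% interval -0.82 to 0.43, adjusted p = 0.582).

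The death receptor of TRAIL and 2 related receptors were lower in RTOC. Tnfrsf10b, which binds TRAIL and signals cell death, read 571 in 2D culture and 93 in RTOC at E14.5, and 509 and 115 at E15.5. It fell by 2.38 on the log2 scale (SD 0.33, n = 2, adjusted p = 0.00383), 5.21-fold, and by 0.84 after normexp and loess (adjusted p = 0.0330). A second probe well above background in all 4 channels gave -2.34 and was also called. The other probe, measured in 2D culture alone, was at least 1.39-fold lower in RTOC (adjusted p = 0.00718). It did not pass after normexp and loess (adjusted p = 0.0761). Tnfrsf26, Tnfrsf22 and Tnfrsf23 are neighbours on chromosome 7, and Tnfrsf22 and Tnfrsf23 are known as TRAIL decoys of the mouse. Tnfrsf26 read 400 and 128 at E14.5 and 183 and 79 at E15.5 (-1.43 ± 0.31, SD, n = 2, adjusted p = 0.0160).

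Tnfrsf22 read 284 in 2D culture and 109 in RTOC at E14.5, and 260 and 159 at E15.5 (-1.05 ± 0.48, SD, n = 2, adjusted p = 0.0463). Tnfrsf23 was well above background in 2D culture of the E14.5 array only and was not tested. The probes of the 3 neighbours shared at most 6 bases in a row. The calls of Tnfrsf22 and Tnfrsf26 were lost after normexp and loess (-0.27 and -0.37, adjusted p = 0.200 and 0.176) and without the array as a block (adjusted p = 0.0722 and 0.0940), and that of Tnfrsf22 also with median centring (adjusted p = 0.0704). Tnfsf10, the gene of TRAIL, was well above background in 2D culture of the E15.5 array alone.

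Tnfrsf18 (GITR), best known from regulatory T cells, read 347 in 2D culture and 1681 in RTOC at E14.5, and 646 and 4910 at E15.5. Both RTOC values stood above both 2D values, by 2.60 ± 0.46 on the log2 scale (SD, n = 2), or 6.07-fold (adjusted p = 0.00367), and by 1.86 after normexp and loess (adjusted p = 0.0251). The gene of its ligand, Tnfsf18, read 588 in 2D culture and 12 in RTOC at E14.5, and 64 and 12 at E15.5, and was well above background in the first of these 4 alone, so it was not tested.

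Tnfrsf4 (OX40), the neighbour of Tnfrsf18 on chromosome 4, did not pass the test, with 515 and 500 at E14.5 and 511 and 448 at E15.5 (-0.12; 95% interval -0.75 to 0.51, adjusted p = 0.751). Tnfrsf25 (DR3), a death-domain receptor of lymphocytes with a κB match printed above, read 155 in 2D culture and 433 in RTOC at E14.5, and 135 and 395 at E15.5. It rose 2.87-fold (log2 1.52 ± 0.05, SD, n = 2, adjusted p = 0.0110), and 0.53 on the log2 scale after normexp and loess did not pass (adjusted p = 0.0685). A second Tnfrsf25 probe of the same transcript was not well above background in any channel. Its ligand gene Tnfsf15 was well above background in 2D culture of the E14.5 array alone. Tnfsf9, the ligand of the costimulatory receptor 4-1BB, read 111 and 27 at E14.5 and 100 and 19 at E15.5. Measured in 2D culture alone, Tnfsf9 was at least 1.18-fold lower in RTOC (adjusted p = 0.00416, and 0.220 after normexp and loess). Tnfsf9 and Tnfsf14, both lower in RTOC, lie with the undetected Cd70 in 1 run of neighbours on chromosome 17.

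Tnfrsf19 encodes the receptor TROY. It read 192 in 2D culture and 878 in RTOC at E14.5, and 196 and 1710 at E15.5. It rose 6.31-fold (log2 2.66 ± 0.66, SD, n = 2, adjusted p = 0.00442), with 1.45 after normexp and loess (adjusted p = 0.0283), while its second probe was not well above background in any channel. Edar, the ectodysplasin receptor of hair and tooth buds, was measured in RTOC alone. It read 171 there at E14.5 and 689 at E15.5, against 42 and 55 in 2D culture, at least 1.73-fold higher (adjusted p = 0.00844, and 0.114 after normexp and loess). The ligand gene Eda was well above background on the E15.5 array alone, in both cultures. Relt, an orphan-type receptor, read 168 and 45 at E14.5 and 138 and 59 at E15.5, with RTOC well above background on 1 of 2 arrays (-1.57 ± 0.49, SD, n = 2, adjusted p = 0.0156, and -0.24 with adjusted p = 0.228 after normexp and loess).

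The receptors and ligands of B cell survival showed no called gene, with Tnfrsf13b alone at an unadjusted p under 0.05. Tnfrsf13b (TACI) read 177 and 294 at E14.5 and 146 and 256 at E15.5, with both RTOC values above both 2D values and a mean of 0.77 ± 0.05 (SD, n = 2, adjusted p = 0.0708), which passed with median centring (adjusted p = 0.0365). This probe was matched by its symbol alone, and the Tnfrsf13b probe matched by accession was not well above background in any channel. The genes of its ligands, Tnfsf13 (APRIL) and Tnfsf13b (BAFF), had means of 0.33 (adjusted p = 0.365) and 0.04 (adjusted p = 0.925). Tnfrsf13c and Tnfrsf17, the receptors of mature B and plasma cells, were not well above background in any channel. Tnfrsf21 (DR6) read 1064 and 1030 at E14.5 and 1735 and 1840 at E15.5 (0.02, adjusted p = 0.961).

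None of the 7 TRAF genes passed the test, though all were well above background in all 4 channels. At an unadjusted p under 0.05 Traf4 and Traf7 passed, with 21 member genes in all. Traf4 came nearest, with 10619 in 2D culture and 6044 in RTOC at E14.5 and 11657 and 6022 at E15.5 (-0.88 ± 0.10, SD, n = 2, adjusted p = 0.0503). Both RTOC values lay below both 2D values. Its dimmer probe did pass (-1.01, adjusted p = 0.0366), but not after normexp and loess (-0.50, adjusted p = 0.0779). The brighter one passed after normexp and loess (-0.88, adjusted p = 0.0307).

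Traf1, itself an NF-kB target, went in opposite directions on the arrays, with 794 in 2D culture and 439 in RTOC at E14.5, and 330 and 673 at E15.5 (-0.86 and 1.03 on the log2 scale). Traf2 and Traf3, which together hold NIK at a low level in resting cells, had means of 0.12 (95% interval -0.51 to 0.75, adjusted p = 0.747) and -0.03 (-0.69 to 0.63, adjusted p = 0.939). Traf3 read 3469 and 2970 at E14.5 and 4416 and 4941 at E15.5, so it too changed sign between arrays. Traf6, the adaptor of RANK and CD40, read 260 and 301 at E14.5 and 325 and 449 at E15.5, a mean of 0.34 (adjusted p = 0.356). Traf5 and Traf7 had means of -0.47 (adjusted p = 0.261) and -0.64 (adjusted p = 0.115).

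Among the NF-kB subunits Nfkb1 rose and Rela fell, and neither subunit of the alternative route passed. Nfkb1, the gene of p105 and p50, read 4138 in 2D culture and 12959 in RTOC at E14.5, and 4641 and 21058 at E15.5. It rose 3.77-fold (log2 1.91 ± 0.38, SD, n = 2, adjusted p = 0.00731), with SDs of 0.06 and 0.05 over the 10 spots of its probe. The other 3 Nfkb1 probes were also called higher, with means of 1.66, 1.72 and 2.71, the last of which was near background in 2D culture at E14.5 and gave 0.92 after normexp and loess. Their starts are shown, in the order of these means after the brightest, since no 2 of the 4 share more than 8 bases in a row and all gave the same direction.
Nfkb1, brightest: tgaaaatagtattttccccgttttatgcat
Nfkb1, 1.66: actcgagagtctcagattgttctagggttt
Nfkb1, 1.72: attgctgccaaacttatatgagacttagac
Nfkb1, 2.71: atgtattacagtaaattagaatatctcaca

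Rela, the gene of the transactivating subunit p65, read 6714 in 2D culture and 3367 in RTOC at E14.5, and 8621 and 4896 at E15.5. Both RTOC values lay below both 2D values, and Rela fell by 0.91 on the log2 scale (SD 0.13, n = 2, adjusted p = 0.0477), 1.87-fold. A dimmer Rela probe gave -1.43 (adjusted p = 0.0132), and -0.59 after normexp and loess, which did not pass (adjusted p = 0.057). The brighter probe missed the threshold with median centring (-0.76, adjusted p = 0.0821) and without the array as a block (adjusted p = 0.110). Nfkb2 read 2310 and 2006 at E14.5 and 1890 and 1834 at E15.5 (-0.12 ± 0.11, SD, n = 2; 95% interval -0.75 to 0.51, adjusted p = 0.737). Relb read 3682 and 4886 at E14.5 and 4642 and 5033 at E15.5 (0.26 ± 0.21, SD, n = 2; -0.38 to 0.91, adjusted p = 0.476). The cultures overlapped for Nfkb2, whereas both RTOC values of Relb lay above both 2D values. Rel was not well above background in any channel.

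The wider machinery of NF-kB signalling was read from a list of 27 genes of kinases, ubiquitin enzymes and inhibitors. Of the 25 tested, all well above background in all 4 channels, 5 were higher and 1 was lower in RTOC, with a median of 0.14. Among all genes so measured, 12.5% were higher and 12.2% lower. Map3k14, the gene of NIK, read 1247 in 2D culture and 4739 in RTOC at E14.5, and 1153 and 4905 at E15.5 (2.01 ± 0.12, SD, n = 2, adjusted p = 0.00503). Birc2 and Birc3, the ubiquitin ligases that with TRAF2 and TRAF3 mark NIK for degradation, rose by 1.95 (adjusted p = 0.00789) and 1.51 (adjusted p = 0.0114) on the log2 scale. Cyld, a deubiquitinase that restrains NF-kB, rose by 1.60 (adjusted p = 0.00986), and Tab1, a partner of the kinase TAK1, by 1.26 (adjusted p = 0.0193). Tnfaip3 (A20), an inhibitor that NF-kB itself induces, fell by 1.03 (adjusted p = 0.0379).

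Genes known as classical NF-kB targets went both ways. Of 17 tested of 19, 3 were higher and 7 lower in RTOC, with a median of -0.20, beside 15.4% and 12.7% of all genes tested. Among the 13 well above background in all 4 channels 3 were higher and 4 lower, beside 12.5% and 12.2% of all genes so measured. The higher were Vcam1, an adhesion molecule (2.81, adjusted p = 0.0125), the chemokine gene Cxcl10 (2.57, adjusted p = 0.0212) and the transcription factor gene Irf1 (2.02, adjusted p = 0.00664). Il6, the gene of an inflammatory cytokine, read 8916 in 2D culture and 52 in RTOC at E14.5, and 3679 and 20 at E15.5. It was not well above background in RTOC and thus at least 11.9-fold lower there (adjusted p = 0.00161). Ptgs2, the inducible cyclooxygenase, fell by 6.19 on the log2 scale (adjusted p = 0.00161, and by 3.65 after normexp and loess), and Csf2, the gene of GM-CSF, was at least 3.08-fold lower (adjusted p = 0.00161). Ccl2 (-1.82, adjusted p = 0.00762), Bcl2l1 (-1.50, adjusted p = 0.0133) and Cxcl1 (-1.40, adjusted p = 0.0205) were also lower, as was Csf3 (adjusted p = 0.0492), which was not well above background in RTOC at E15.5. After normexp and loess Cxcl10 (adjusted p = 0.0610), Cxcl1 (-0.66, adjusted p = 0.114) and Csf3 (-0.21, adjusted p = 0.296) no longer passed.

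Of 8 listed stromal genes known to respond to lymphotoxin, 6 were found on the array and 4 were tested. Of these 4, 2 rose, beside 15.4% higher among all genes tested. Ccl19, a chemokine gene of the medulla and of lymph node stroma, read 172 in 2D culture and 1206 in RTOC at E14.5, and 500 and 3621 at E15.5 (2.83 ± 0.03, SD, n = 2, adjusted p = 0.00233), and 1.65 after normexp and loess. Cxcl13, the B cell attracting chemokine, rose by 3.36 (adjusted p = 0.00177), with 2D culture well above background on 1 of 2 arrays and 1.04 after normexp and loess (adjusted p = 0.0526). Ccl21c, a near copy of other Ccl21 genes, had 2.77 and 0.55 on the 2 arrays and did not pass (adjusted p = 0.0690). Chst4 did not pass, and Madcam1 and Glycam1 were not detected.

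The medullary epithelium, on which RANK, CD40 and lymphotoxin act, was read from 15 markers. Of 12 tested, 5 were higher and 5 lower in RTOC, with a median of 0.30, beside 15.4% and 12.7% of all genes tested. Of the 8 well above background in all 4 channels 3 were higher and 3 lower, beside 12.5% and 12.2% of all genes so measured. Aire, the regulator of tissue-restricted antigens, was measured in RTOC alone, with 321 at E14.5 and 249 at E15.5 against 63 and 70 in 2D culture, at least 1.46-fold higher (adjusted p = 0.00560). Fezf2, another such regulator, was likewise at least 1.28-fold higher (adjusted p = 0.00401), and Spib and Krt5 rose by 2.47 (adjusted p = 0.00727, and 1.15 after normexp and loess) and 2.90 (adjusted p = 0.00260). Krt14 (-1.86, adjusted p = 0.00615) and the claudin genes Cldn3 (-3.26, adjusted p = 0.00194) and Cldn4 (-4.26, and -3.49 after normexp and loess, adjusted p = 0.00161 and 0.0115) fell. Cd80 was also called lower (adjusted p = 0.00177), but was not well above background in RTOC at E15.5, and gave -0.92 after normexp and loess (adjusted p = 0.0483). The markers of this compartment thus did not go one way, and Aire (adjusted p = 0.0647) and Fezf2 (0.134) no longer passed after normexp and loess.

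Markers of the other cell types also differed between the cultures. For scale, 15.4% of all genes tested were higher and 12.7% lower, and 12.5% and 12.2% of those well above background in all 4 channels. Of the cortical epithelial markers 10 of 12 were higher in RTOC and none lower, with a median of 3.67, and of the myeloid markers 7 of 12. Endothelial markers were called higher for 7 of 8 tested, but Pecam1, Cdh5, Tek and Tie1 entered the test through RTOC alone, and of the 3 measured in all 4 channels 2 were higher. Their summed intensity was 842 to 1692 in 2D culture and 8406 to 12994 in RTOC, and Kdr gave 1043 of the 1692 at E14.5. The myeloid sum was 77206 to 86471 in 2D culture and 214049 to 262442 in RTOC, carried mostly by Lyz2 in every channel. Of the fibroblast markers 5 rose and 4 fell, and their sum was 332395 to 433703 in 2D culture and 278254 to 299394 in RTOC, a sum carried in 2D culture mostly by the collagen genes Col1a1 and Col1a2.

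Of the 14 T lineage markers, 5 were well above background in all 4 channels and 3 in none. Of 14, 8 were tested and 3 were called higher (Ptprc, Cd3d and Cd3g), beside 15.4% higher among all genes tested. Of these 3, Ptprc alone was measured in all 4 channels. Cd3g read 87 in 2D culture and 1493 in RTOC at E14.5, and 16 and 195 at E15.5 (adjusted p = 0.00174). After normexp and loess it did not pass (1.19, adjusted p = 0.124). Cd3e (-0.08), Lck (0.30), Dntt (0.05) and Il7r (-0.58), also measured in all 4 channels, did not pass. Cd2, Cd8a and Rag2 were not well above background in any channel. The summed intensity of the 14 was 2487 in 2D culture and 6771 in RTOC at E14.5, and 2830 and 4380 at E15.5. Ptprc (CD45), which all blood cells share, carried much of this rise, so the sum does not describe T cells alone. Ptprc read 782 and 3061 at E14.5 and 708 and 2458 at E15.5, and rose by 1.88 on the log2 scale (adjusted p = 0.00609). Of 5 B lineage markers 2 were tested and only Cd79b was called higher, measured in RTOC alone, and Cd79a, Ms4a1 and Pax5 were not detected. The part of these cell types in the ratios of Ltb, Tnfrsf18, Tnfrsf25 and the other members was not tested.

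**Figure D4:**
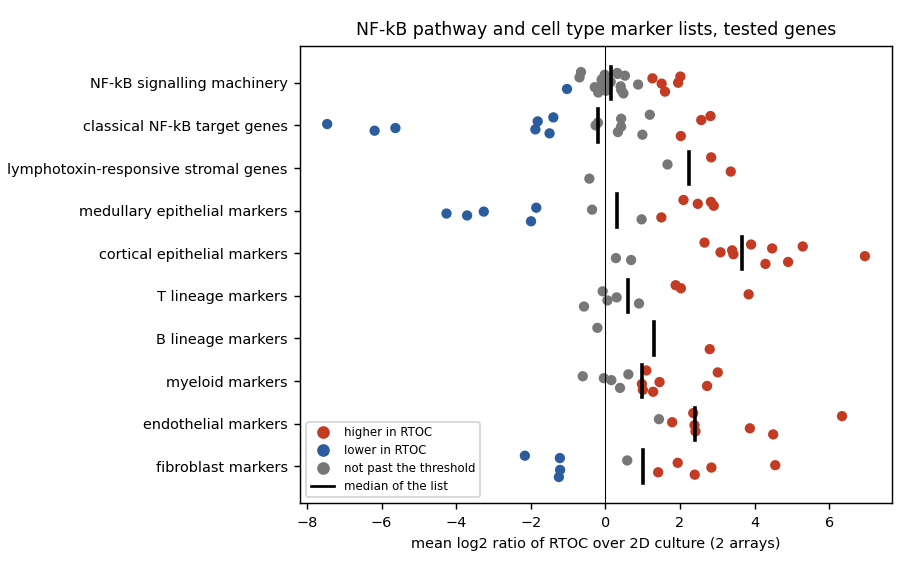
Mean log2 ratio of RTOC over 2D culture over 2 arrays (horizontal axis) of the tested genes of 10 lists (rows), each point a gene coloured by its limma call, with a black bar at the median of the list. The cortical list has its median at 3.67, whereas the classical NF-kB targets and the medullary markers spread to both sides of 0.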

How the data were processed

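RNA of RTOC (Cy5) and 2D culture (Cy3) was hybridized together on 2 Agilent mouse whole-genome arrays, on 1 slide and in 1 scan. The authors deposited Feature Extraction output, with background-subtracted, dye-normalized processed signals as an intensity per spot, and log10 ratios, also as a series table; the version is 11.5.1.1 in the submitters' processing notes and 9.1.3.1 in the file headers. Deposited p-value columns of single arrays were not used. The labels name TRIzol and the methods a column kit for the RNA.

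Control spots and spots flagged as non-uniformity outliers (5 at E14.5, 1 at E15.5) were left out, and spots flagged as population outliers were kept. The 4 channels were quantile normalized, as the methods state. Log2 ratios were averaged over spots of a probe and tested against 0 with limma 3.58.1 in R 4.3.3 (intercept, eBayes, two-sided, Benjamini-Hochberg, threshold 0.05; 1 residual and 4.5 prior degrees of freedom). A probe was well above background in a channel where at least 0.5 of its spots were. No member was saturated. A bound sets the bright culture's mean against the higher of the dim probe's signal and the lowest signal well above background on each array, after normexp (offset 50), loess and Aquantile, and is open to dye bias. Probes were named through a RefSeq table by accession (22951), symbol (6659) or synonym (3109), and 8455 kept the array's name.

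Every member could be named: the RANK, CD40, lymphotoxin and TNF axes, the TRAFs and the subunits always, others if called or opposite in sign between arrays or probes, and of the other lists up to 5 called genes at each end, or defining markers. Members and lists were chosen with earlier results of these data known. Steps were tested on simulated data. Alternatives were normexp with loess or Aquantile, median centring, the deposited log ratios and series values, no or a stricter filter, outlier spots kept, gene medians, a trended robust eBayes, the methods' t-test, leaving out either array and a fit with no replicate block. The number of arrays limits precision.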

Additional observations from a re-analysis of the deposited data

Results flagged for a closer look

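Some members had ratios of opposite sign between the arrays of the stages E14.5 and E15.5, 5 of the 38 tested, beside 20.3% of all genes tested. With 1 array per stage the differences were not tested. The E15.5 log2 ratio minus that of E14.5 was 1.89 for Traf1, 0.39 for Traf3, 0.13 for Tnfrsf21, -0.31 for Tnfsf13b and -0.37 for Tnf. None of these genes passed limma's test over both arrays.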

How the results depend on the processing

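Of all probes, 6820 passed in the analysis reported; 3709 passed after normexp and loess, with or without Aquantile, 4033 with no replicate block, 0 without the filter on dim probes (10666 at an unadjusted p under 0.05), and 0 by the methods' t-test after Benjamini-Hochberg (3539 unadjusted), and 3795 genes passed by gene medians. Member genes higher and lower in RTOC, 8 and 9 in the analysis reported, came to 4 and 5 after normexp and loess (with or without Aquantile), 6 and 5 with no replicate block, 0 and 0 without the filter (19 member genes unadjusted) and 0 and 0 by the adjusted t-test (2 and 3 unadjusted). Of the 17 called genes 8 remained after normexp and loess and 11 with no replicate block. The sign turned for Tnf (0.0081 after normexp and loess with or without Aquantile, 0.18 with median centring, 0.0324 with the deposited log ratios and the series values), Tnfsf13b (-0.0176 after normexp and loess with or without Aquantile), Tnfrsf1b (-0.0037 by gene median) and, with median centring, Tnfrsf4 (0.0362), Traf3 (0.10) and Nfkb2 (0.0075), none of which passed. The cause of these changes was not tested. Leaving out an array leaves 1 ratio per gene and no test.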
